A study of Mus musculus with 11 samples.

Results

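The 39 mouse Hox genes, the rows of the count table named Hoxa, Hoxb, Hoxc or Hoxd followed by a paralog number, were examined by cluster and by position within the cluster. They were 39 of the 43346 genes counted in polyA RNA from the colon. The samples came from male Swiss Webster mice, 5 of them germ-free and 6 humanized, each a separate animal. The germ-free mice carried no microbiota, and the humanized mice were germ-free animals given 300 µL of stool suspension from 1 human donor by oral gavage at 4 to 5 weeks of age. Tissue was taken from both groups at 8 to 10 weeks. The humanized group therefore stands for 1 donor's microbiota. The sources used here do not state which stretch of the colon was taken.

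Hox genes encode homeodomain transcription factors that give embryonic tissues their position along the head-to-tail axis. They lie in 4 clusters, and the order of the genes within a cluster follows the order of their expression along the axis. Low paralog numbers act toward the head and high paralog numbers toward the tail. In the adult gut both epithelium and mesenchyme keep part of this positional code. HoxA and HoxD genes of the posterior groups are known from the development of the hindgut, limb and urogenital tract, and their proteins bind DNA together with the TALE homeodomain cofactors Pbx and Meis.

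Library totals were 49097005 to 64148538 counts in germ-free mice and 39125290 to 54219854 in humanized mice. Summed colon epithelium markers stood at 8380 to 11673 CPM in germ-free and 16597 to 22389 CPM in humanized mice, without overlap. Summed small intestine markers stood at 76.8 to 159 CPM in germ-free and 11.9 to 154 CPM in humanized mice. Of 3 tested small intestine markers 1 was lower in humanized mice and 0 higher at an FDR below 0.01 (edgeR exact test), and 2 had a positive LFC (log2 of humanized over germ-free). No marker of any cell type list was at 0 in all mice. Both groups therefore carried the defining markers of the labelled tissue.

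Of the 39 Hox genes, 37 had at least 1 read in any mouse and 32 passed the low-count filter. By cluster, 11 of 11 HoxA, 8 of 10 HoxB, 6 of 9 HoxC and 7 of 9 HoxD genes passed. Hoxb1 and Hoxc13 had 0 reads in all 11 mice, and a count of 0 allows up to 0.00537 CPM (counts scaled to library size) over the 559115369 counts of the series. Hoxb13, Hoxc8, Hoxc12 and Hoxd13 stayed under 10 reads in every mouse. Hoxd12, which reached 12 reads in 1 germ-free mouse, did not pass either. Of the paralog groups 12 and 13, the most posterior, only Hoxa13 was tested.

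Levels are given as RPKM, read counts divided by exon length and by TMM-scaled library size, so that genes of different length can be set side by side. The HoxB cluster held most of the Hox signal, with 70.3 to 81.0% of the summed Hox RPKM in germ-free mice and 75.8 to 82.3% in humanized mice. Hoxb6, a mid-cluster gene, was the highest of all, at 56.6, 50.5, 55.4, 47.1 and 49.9 RPKM in germ-free mice 1 to 5 and from 44.3 through a median of 46.7 to 51.2 in the humanized mice. The groups overlapped. Hoxb6 ranked at the 93.7th percentile of the tested genes by mean RPKM.

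Hoxb9 followed with a mean of 48.0 RPKM over all mice, and its range overlapped that of Hoxb6. Hoxb7 at 26.9 RPKM and Hoxb8 at 17.3 RPKM came next. The range of Hoxb9 lay wholly above that of Hoxb7, and the range of Hoxb7 wholly above that of Hoxb8. For every further pair of neighbours in the order of levels the ranges over the 11 mice overlapped. The next genes by mean were Hoxb5 at 14.8, Hoxd4 at 12.5, Hoxb3 at 11.9 and Hoxa7 at 8.88 RPKM. The 6 tested HoxC genes were all low, between 0.0948 and 0.243 RPKM.

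**Figure D1:**
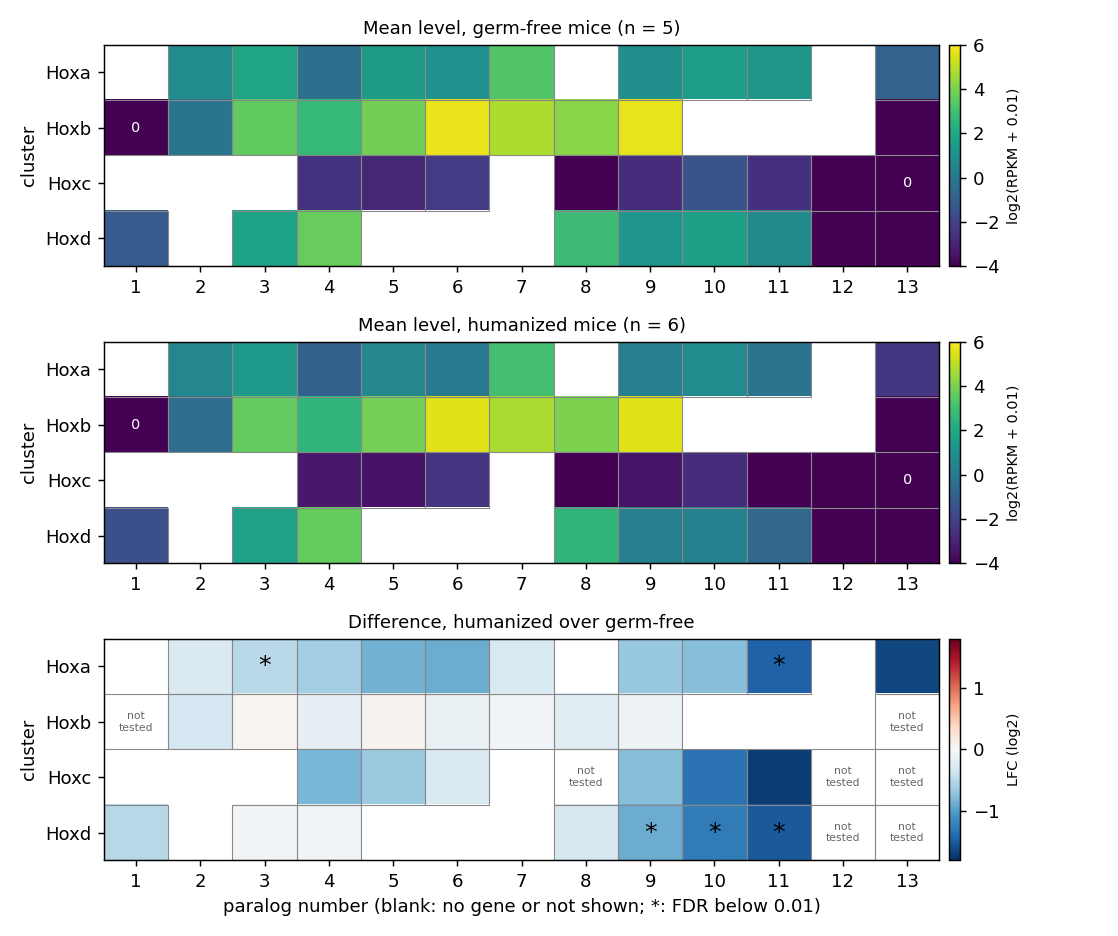
Mean level of the Hox genes shown as log2(RPKM + 0.01) in germ-free mice (top) and humanized mice (middle), and LFC of humanized over germ-free mice with TMM scaling (bottom), by cluster (rows) and paralog number (columns). A 0 marks genes with no reads and an asterisk an FDR below 0.01 in edgeR's exact test. The bright HoxB row holds Hoxb6 and Hoxb9, and the 5 asterisks stand at Hoxa3, Hoxa11, Hoxd9, Hoxd10 and Hoxd11. With scaling to the smooth muscle or fibroblast markers most signs turned. These scalings moved the median LFC of all tested genes to 2.38 and 1.95.

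The question the design asks is how the levels differed between mice with and without a microbiota. At an FDR below 0.01 in edgeR's exact test, 5 of the 32 tested Hox genes were lower in humanized mice (15.6%, against 10.1% of all 19863 tested genes) and 0 were higher (against 9.2%). At an unadjusted p below 0.05 in the same test, 13 were lower (40.6%, against 19% of all tested genes) and 0 higher (against 18.5%). The 5 called genes were Hoxd11, Hoxd10, Hoxd9, Hoxa11 and Hoxa3, and 4 of them belong to paralog groups 9 to 11. edgeR's quasi-likelihood test called 1 Hox gene lower, Hoxa11 (3.125%, against 6.53% of all tested genes), and 0 higher (against 7.05%). With DESeq2 the counts were 5 lower (against 11% of all genes) and 0 higher (also against 11%). LFC was negative, that is lower in humanized mice, for 30 of 32 genes with TMM scaling, for 0 with scaling to the smooth muscle markers and for 3 with scaling to the fibroblast markers. Of all 19863 tested genes, 9688 had a negative LFC with TMM scaling. The smooth muscle and fibroblast marker scalings moved the median LFC of all tested genes to 2.38 and 1.95.

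These are bulk samples, so fewer cells of a type and less RNA per cell cannot be told apart. Markers of several cell types moved with the groups. All 10 smooth muscle markers were lower in humanized mice (summed level 834 to 2381 CPM in germ-free and 95.9 to 856 CPM in humanized mice, median LFC −1.91), as were 6 of 8 fibroblast markers (505 to 820 against 58.4 to 419 CPM, median LFC −1.44). Of the enteric neuron and glia markers, 8 of 10 were lower (30.3 to 42.5 against 7.22 to 16.6 CPM). Of 6 endothelium markers 0 were called, though all 6 had a negative LFC (median −0.95) and the sums of 97.2 to 115 CPM in germ-free and 13.6 to 89.6 CPM in humanized mice did not overlap. Of 3 markers of interstitial cells of Cajal 1 was lower (226 to 265 against 149 to 229 CPM), and of 4 leukocyte markers 2 were higher (33.0 to 40.4 against 29.0 to 76.4 CPM, median LFC 0.78). Of 11 epithelium markers 0 were lower and 2 higher, with sums of 9442 to 12677 CPM in germ-free and 10773 to 15122 CPM in humanized mice. The colon epithelium sum, given above, was higher in each humanized mouse, and 1 of its 6 markers was called higher. The part of these marker levels in the Hox differences was not tested.

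By cluster, the median LFC was −0.75 for HoxA, −0.11 for HoxB, −0.79 for HoxC and −0.50 for HoxD, beside 0.0084 for all tested genes. By position it was −0.30 for paralog groups 1 to 3 (7 genes), −0.26 for groups 4 to 8 (14 genes) and −1.25 for groups 9 to 13 (11 genes). Within HoxA, HoxC and HoxD the median of groups 9 to 13 was −1.11, −1.33 and −1.25, beside −0.73, −0.67 and −0.17 for groups 4 to 8. Single genes did not all follow. Hoxa9 (−0.68) and Hoxa10 (−0.76) were less negative than Hoxa5 (−0.84) and Hoxa6 (−0.90), and Hoxc9 (−0.77) than Hoxc4 (−0.82). Hoxb9, the only tested posterior HoxB gene, stood at −0.09 (standard error 0.07). Relative to the median of all tested genes, 30 of the 32 Hox genes were below it with upper-quartile, total-count or epithelium marker scaling, and 29 with smooth muscle or fibroblast marker scaling. Each scaling moves the LFC of most genes by about the same amount, so measuring from the median largely undoes it. These counts are therefore no separate evidence.

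**Figure D2:**
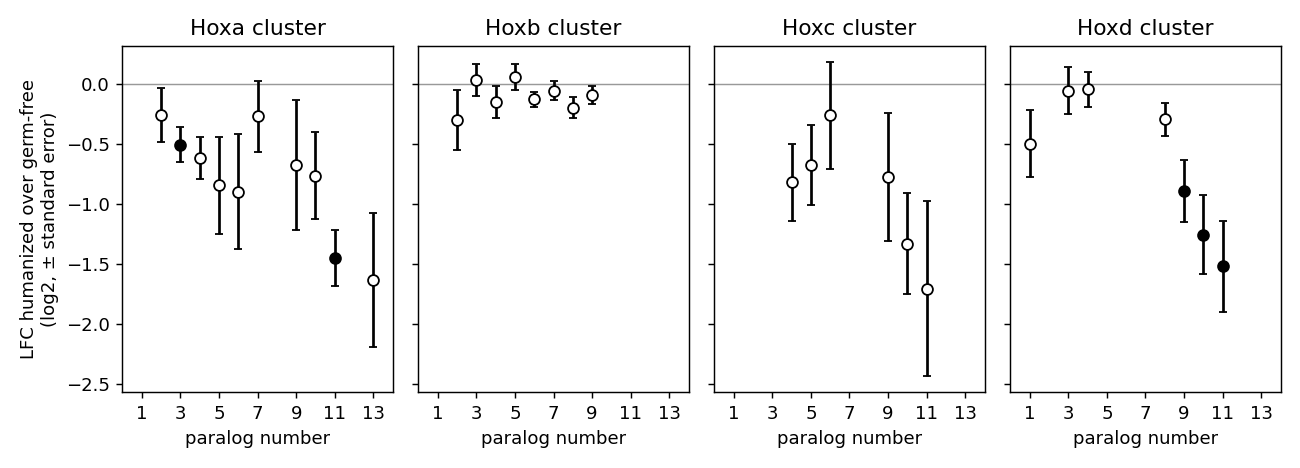
LFC of humanized over germ-free mice (log2, TMM scaling) against paralog number for the genes shown in each cluster, with standard errors from edgeR's quasi-likelihood fit and filled points for genes at an FDR below 0.01 in the exact test. HoxB genes lie between −0.30 and 0.06, and HoxD genes run from −0.04 at Hoxd4 to −1.52 at Hoxd11. With scaling to the smooth muscle markers the LFC of all 32 tested genes was positive, and with scaling to the fibroblast markers that of 29 was. Of all tested genes in the series, 87.7% and 81.7% were called higher under these scalings.

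The 4 upstream windows are shown because they belong to a pair of posterior genes that were lower in humanized mice, Hoxd10 and Hoxa11, and a pair of well-expressed genes that were not called, Hoxd4 and Hoxb8. The 4 were chosen after their values were seen. Each is the 250 bases before a RefSeq transcript start (GRCm38.p6), printed 5′ to 3′ on the gene's strand, with capitals at the letters TTTAT or, on the other strand, ATAAA, a core that Cdx and posterior Hox proteins recognise. The windows lie at chr2:74691641-74691890, plus strand (Hoxd10), chr6:52245811-52246060, minus strand (Hoxa11), chr2:74721728-74721977, plus strand (Hoxd4) and chr11:96281655-96281904, plus strand (Hoxb8).
Hoxd10: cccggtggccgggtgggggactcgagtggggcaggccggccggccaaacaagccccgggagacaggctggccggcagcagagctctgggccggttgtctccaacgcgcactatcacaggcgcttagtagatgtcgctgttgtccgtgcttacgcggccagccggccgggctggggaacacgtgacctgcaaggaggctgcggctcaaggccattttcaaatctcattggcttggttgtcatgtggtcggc
Hoxa11: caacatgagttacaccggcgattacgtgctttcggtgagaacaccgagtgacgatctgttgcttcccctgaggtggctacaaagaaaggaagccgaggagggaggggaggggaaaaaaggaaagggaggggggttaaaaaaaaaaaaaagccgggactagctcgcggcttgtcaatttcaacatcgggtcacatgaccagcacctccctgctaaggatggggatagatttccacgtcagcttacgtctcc
Hoxd4: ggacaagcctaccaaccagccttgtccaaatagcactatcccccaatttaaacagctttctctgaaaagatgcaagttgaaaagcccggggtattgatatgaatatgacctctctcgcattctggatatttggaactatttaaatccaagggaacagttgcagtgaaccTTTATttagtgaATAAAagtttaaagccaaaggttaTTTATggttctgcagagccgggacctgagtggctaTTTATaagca
Hoxb8: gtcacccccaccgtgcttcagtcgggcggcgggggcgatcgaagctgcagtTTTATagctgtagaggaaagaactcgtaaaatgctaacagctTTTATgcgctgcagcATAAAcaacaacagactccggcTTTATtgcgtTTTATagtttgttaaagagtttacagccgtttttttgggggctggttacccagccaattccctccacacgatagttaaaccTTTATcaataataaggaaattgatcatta

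The Hoxd10 and Hoxa11 windows held 20 and 13 CG pairs and 0 matches to the core, whereas the Hoxd4 window held 3 CG pairs and 4 matches and the Hoxb8 window 12 CG pairs and 6 matches. RefSeq windows were at hand for 24 starts of 22 Hox genes. Of these 24 windows, 9 (37.5%) held the core at least once, beside 37.3% of all 32851 windows. The Hox windows were richer in CG pairs, with a median of 12.5 against 6 over all windows. Hoxd9 and Hoxa3, also lower in humanized mice, held 13 and 18 CG pairs and 0 matches, and the starts listed for Hoxd11 held 2 and 20 CG pairs and 2 and 0 matches. Of the tested genes that were not called, the listed windows of Hoxa5, Hoxa6, Hoxa9, Hoxa13, Hoxb4, Hoxc4, Hoxd1 and Hoxd8 also held 0 matches. Hoxd4 and Hoxb8 had the most matches of all 24 windows, so the contrast among the 4 printed windows rests on their choice. A match describes letters and not a bound site.

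The HoxD cluster, 96.8 kb of chromosome 2 on the plus strand (mm10), contained 3 of the 5 called genes. Hoxd11 (chr2:74679557-74687016), which patterns the distal limb, kidney and hindgut, measured 1.60, 1.26, 1.99, 2.24 and 1.48 RPKM in germ-free mice 1 to 5. In humanized mice it ran from 0.120 through a median of 0.644 to 0.901 RPKM. Every humanized mouse was below every germ-free mouse, and humanized mouse 5 was the lowest. The means were 1.71 ± 0.396 RPKM (SD, n = 5) and 0.599 ± 0.305 RPKM (SD, n = 6), a 2.86-fold lower mean. LFC was −1.52 with a standard error of 0.38, and the FDR of edgeR's exact test was 9.75e-04 (quasi-likelihood FDR 0.0111).

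Hoxd10 (chr2:74691924-74695105), a neighbour of Hoxd11 that acts in the hindlimb, spinal cord and hindgut, measured 3.11, 2.42, 2.89, 4.04 and 3.19 RPKM in germ-free mice 1 to 5 and ran from 0.371 through 1.44 to 1.96 RPKM in humanized mice. The groups did not overlap, and humanized mouse 5 was again the lowest. LFC was −1.25 with a standard error of 0.33 (edgeR exact test, FDR 0.00187, quasi-likelihood FDR 0.0137). Without germ-free mouse 4, the highest, the FDR of Hoxd10 in the exact test was 0.0122.

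Hoxd9 (chr2:74697727-74700208), the next gene toward the head, measured 2.12, 2.23, 2.27, 3.02 and 2.1 RPKM in germ-free mice 1 to 5 and ran from 0.788 through 1.06 to 2.16 RPKM in humanized mice. The groups overlapped, since humanized mouse 3 lay above germ-free mice 1 and 5. LFC was −0.89 with a standard error of 0.26 (edgeR exact test, FDR 0.00800, quasi-likelihood FDR 0.0223). This call was lost on leaving out any 1 of germ-free mice 1 to 5 or humanized mice 1, 2, 5 and 6, with FDR in the exact test of 0.0138 to 0.0408.

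The anterior HoxD genes differed less between groups. Hoxd8 had an LFC of −0.29 (standard error 0.14), Hoxd4 of −0.04 (0.15) and Hoxd3 of −0.05 (0.20), and none of them was called. Hoxd1, at the head end, had an LFC of −0.50 (0.28) and was not called. Hoxd4, the highest HoxD gene, measured 13.9, 11.03, 14.6, 11.5 and 12.5 RPKM in germ-free mice and ran from 8.06 through 12.2 to 15.6 RPKM in humanized mice. Humanized mice held both the lowest and the highest value. Hoxd3 and Hoxd4 share 62.8% and 52.3% of their exon bases with other genes, among them each other, so their counts are uncertain.

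The make-up of the HoxD signal within a mouse does not depend on how libraries are scaled. Hoxd9 to Hoxd13 held 21.3 to 28.9% of the summed HoxD RPKM in germ-free mice and 6.59 to 17.9% in humanized mice. This share restates the calls of Hoxd9, Hoxd10 and Hoxd11 and is no separate evidence, and Hoxd3 and Hoxd4 in its denominator have the uncertain counts named above. The ratio of Hoxd11 to Hoxd4, a pair chosen after their values were seen for its far-apart LFC and so no separate evidence, was 0.114 to 0.195 in germ-free mice and 0.0113 to 0.0688 in humanized mice. Both measures were lowest in humanized mouse 5, which also had the lowest smooth muscle (95.9 CPM), fibroblast (58.4 CPM) and endothelium (13.6 CPM) marker sums. Without humanized mouse 5, 5 Hox genes were lower (15.6%, against 11.5% of all genes) and 0 higher (against 9.52%) by the exact test, Hoxd11 at an LFC of −1.30 and Hoxd10 at −1.06.

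**Figure D3:**
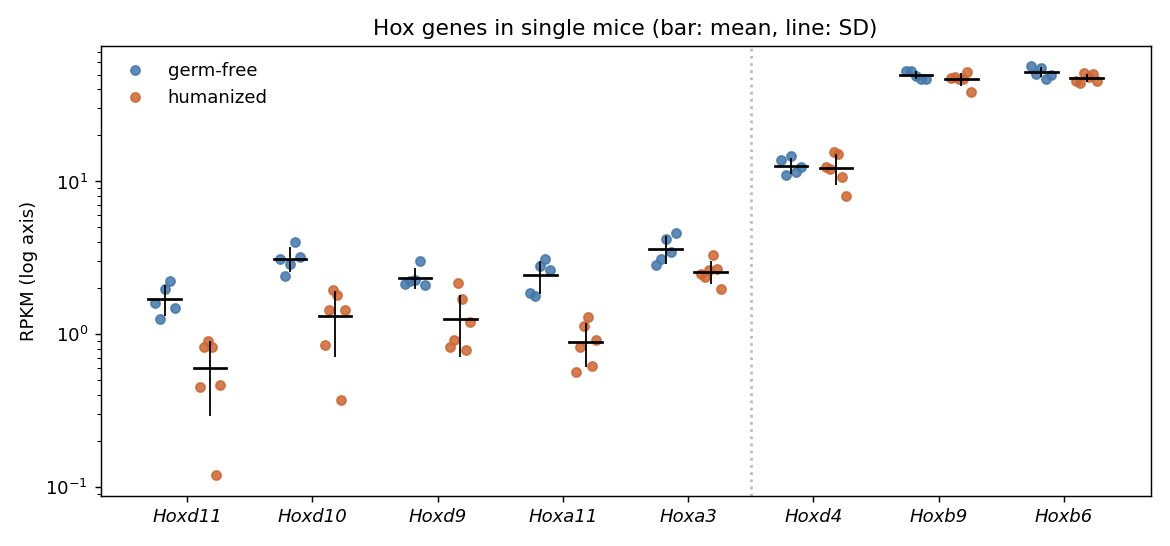
RPKM (log axis) of the 5 genes at an FDR below 0.01 (left of the dotted line) and of Hoxd4, Hoxb9 and Hoxb6 (right) in single germ-free (blue, n = 5) and humanized (orange, n = 6) mice, with the mean as a bar and the SD as a line. The groups do not overlap for Hoxd11, Hoxd10 and Hoxa11, and overlap for the rest. TMM scaling is used.

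Groups that did not overlap in RPKM were seen for 3 of 32 tested Hox genes with the humanized mice below (9.38%, against 9.73% of all tested genes) and for 0 with the humanized mice above (against 8.67%). The share was near that of all genes. The genes were Hoxd11, Hoxd10 and Hoxa11.

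The HoxA cluster spans 105 kb of chromosome 6 on the minus strand. Hoxa11 (chr6:52242106-52245810), a posterior gene needed in the uterus, kidney and forelimb, measured 1.87, 1.78, 2.80, 3.13 and 2.64 RPKM in germ-free mice 1 to 5 and ran from 0.572 through 0.875 to 1.29 RPKM in humanized mice. Every humanized mouse was below every germ-free mouse. The means were 2.44 ± 0.595 RPKM (SD, n = 5) and 0.894 ± 0.284 RPKM (SD, n = 6), a 2.73-fold lower mean. LFC was −1.45 with a standard error of 0.23 (edgeR exact test, FDR 6.84e-07, quasi-likelihood FDR 0.00118).

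Hoxa11 shares 35.0% of its exon bases with Hoxa11os, the antisense RNA across its start. The library kit does not mark strand, so reads over the shared bases cannot be told apart. Hoxa11os itself was lower in humanized mice, with 2.16 ± 0.581 RPKM (SD, n = 5) against 0.849 ± 0.212 RPKM (SD, n = 6) and an LFC of −1.35 (edgeR exact test, FDR 9.26e-07). Hoxd11 and Hoxd10 share 10.8% and 5.73% of their exon bases with Gm28309, a transcript of the same strand that had an LFC of −1.44 (edgeR exact test, FDR 2.33e-04). Hoxd9 shares no exon base with another gene.

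Hoxa3 (chr6:52169062-52213336), which patterns the pharyngeal arches and thymus, measured 2.83, 3.09, 4.22, 3.44 and 4.61 RPKM in germ-free mice 1 to 5 and ran from 1.97 through 2.55 to 3.29 RPKM in humanized mice. The groups overlapped, since humanized mouse 4 lay above germ-free mice 1 and 2. LFC was −0.50 with a standard error of 0.15 (edgeR exact test, FDR 0.00925, quasi-likelihood FDR 0.0223). The call was lost on leaving out any 1 of germ-free mice 3, 4 and 5 or humanized mice 1, 2, 3 and 6, with FDR in the exact test of 0.0142 to 0.0540. Hoxa3 shares 27.1% of its exon bases with 5 other transcripts.

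The genes nearest to the threshold on its other side, named here after their values were seen, were Hoxc10 (LFC −1.33, FDR 0.0105), Hoxa4 (LFC −0.62, FDR 0.0149) and Hoxa13 (LFC −1.63, FDR 0.0190) in edgeR's exact test. Hoxa13, the gene of the cloaca and the distal hindgut, measured 0.391, 0.193, 0.733, 0.758 and 0.666 RPKM in germ-free mice 1 to 5. In humanized mice it measured 0.110, 0.468, 0.137, 0.229, 0.0170 and 0.105 RPKM. Humanized mouse 2 lay above germ-free mice 1 and 2 and humanized mouse 4 above germ-free mouse 2, and humanized mouse 5 was at 2 reads. At an FDR below 0.05 the count of lower Hox genes was 9 (28.1%, against 14.6% of all tested genes).

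The HoxA genes from Hoxa5 to Hoxa10 varied widely among mice of the same group. Hoxa9, which is known for its part in limb and blood cell development, measured 0.898, 0.705, 3.38, 1.17 and 3.62 RPKM in germ-free mice 1 to 5 and 0.220, 1.31, 0.904, 1.35, 2.52 and 1.04 RPKM in humanized mice 1 to 6. Germ-free mice 3 and 5 were the highest of all 11 and humanized mouse 1 was the lowest. The coefficient of variation of Hoxa9 was 72.9% in germ-free and 61.8% in humanized mice. Its LFC of −0.68 had a standard error of 0.54 and was not called.

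Germ-free mice 3 and 5 also held both top values of Hoxa2, Hoxa3, Hoxa5, Hoxa6, Hoxa7 and Hoxa10. Hoxa7, the highest HoxA gene, measured 6.69, 4.98, 13.8, 8.96 and 14.5 RPKM in germ-free mice and ran from 4.49 through 8.48 to 11.3 RPKM in humanized mice. In fibroblast markers germ-free mice 3 and 5 stood at 670 and 692 CPM, between the other germ-free mice at 505 and 820 CPM. In epithelium markers they stood at 11246 and 12677 CPM, mouse 5 being the highest of the germ-free mice. Their Hoxb9 levels of 49.2 and 46.7 RPKM lay between those of the other mice. The part of these levels in the HoxA pattern was not tested. The summed HoxA level was 40.4 and 40.8 RPKM in these mice and 16.2 to 27.6 RPKM in the other germ-free mice.

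**Figure D4:**
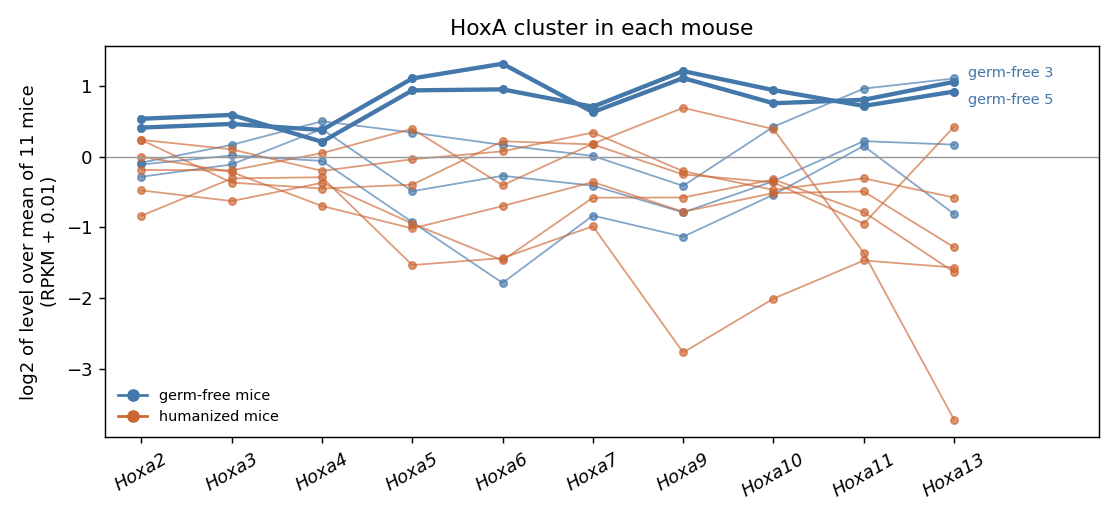
Level of HoxA genes from Hoxa2 to Hoxa13 in each mouse as log2 of (RPKM + 0.01) over the mean of the 11 mice, with germ-free mice in blue and humanized mice in orange. Germ-free mice 3 and 5 (thick lines) hold both top values of Hoxa2, Hoxa3 and each gene from Hoxa5 to Hoxa10, and the low point at Hoxa13 is humanized mouse 5.

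The median coefficient of variation was 42.3% in germ-free and 44.8% in humanized mice for tested HoxA genes, 16.3% and 37.0% for HoxD and 31.3% and 58.7% for HoxC. HoxB genes had 9.49% and 14.1%, beside 10.4% and 16.5% over all tested genes. Hoxa9 to Hoxa13 held 25.5 to 29.8% of summed HoxA RPKM in germ-free mice and 13.2 to 25.9% in humanized mice, where humanized mouse 6 alone lay above a germ-free mouse. This share was not tested.

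The HoxB cluster, 174 kb of chromosome 11 on the plus strand, had 0 called genes of 8 tested, which with 10.1% of all genes lower and 9.2% higher is no result about HoxB. Its LFC lay between −0.30 (Hoxb2, standard error 0.25) and 0.06 (Hoxb5, 0.11), and Hoxb3 at 0.03 was the other gene with a positive value. Under total-count or epithelium marker scaling the values of Hoxb3 and Hoxb5 were negative too. Total counts also called Hoxb6 (LFC −0.31), Hoxb8 (−0.38) and Hoxb9 (−0.28) lower, with FDR of 0.00325, 0.00195 and 0.00896 in edgeR's exact test, where 18.2% of all tested genes were called lower. Epithelium marker scaling called Hoxb8 lower (LFC −0.45, FDR 0.00727), where 13.6% were. For Hoxb6 the LFC was −0.13 with a standard error of 0.06, and for Hoxb7 −0.05 with 0.08. Hoxb9, with a trace of Hoxb13, held 25.1 to 29.7% of summed HoxB RPKM in humanized and 26.9 to 28.4% in germ-free mice. Hoxb3 shares 52.9% of its exon bases with the antisense Hoxb3os.

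The HoxC cluster, 116 kb of chromosome 15 on the plus strand, had 0 called genes of 6 tested, likewise near the share of all genes. All 6 had a negative LFC between −0.26 and −1.70 with TMM scaling. With scaling to the smooth muscle markers all 6 were positive, where 87.7% of all tested genes were called higher. Hoxc10, the highest HoxC gene and a hindlimb and lumbar patterning gene, measured 0.241, 0.410, 0.394, 0.268 and 0.495 RPKM in germ-free mice and ran from 0.0418 through 0.156 to 0.254 RPKM in humanized mice. Only humanized mouse 3 lay above a germ-free mouse. The LFC had a standard error of 0.42.

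Marker sums are given here beside the called posterior genes for single mice. Germ-free mouse 4 was the highest in Hoxd9, Hoxd10, Hoxd11 and Hoxa11 and in the smooth muscle (2381 CPM) and fibroblast (820 CPM) sums. Humanized mouse 5 was the lowest in Hoxd9, Hoxd10 and Hoxd11 and in both sums, but Hoxa11 was lowest in humanized mouse 1. Humanized mouse 6 had a smooth muscle sum of 856 CPM, above germ-free mouse 1 at 834 CPM, and a Hoxd11 level of 0.464 RPKM, below humanized mice 2, 3 and 4. Its Hoxd10 (1.45 RPKM), Hoxd9 (1.20 RPKM) and Hoxa11 (0.925 RPKM) levels lay above humanized mice 1, 2 and 5 and below mice 3 and 4. The mice also differ by group, and this relation was not tested. Hoxb9 stood at 52.2 RPKM in humanized mouse 5, the highest of the humanized mice. Scaled to the fibroblast markers, which moved the median LFC of all tested genes to 1.95, LFC was −0.09 for Hoxd11, 0.22 for Hoxd10, 0.30 for Hoxa11 and 0.77 for Hoxd9, none of them called. Hoxa3 stood at 1.48 (edgeR exact test, FDR 0.00605). Below that median, the 5 genes lay by 2.04, 1.73, 1.65, 1.17 and 0.46 in the same order. Measuring from the median largely undoes the scaling, so these distances are no separate evidence.

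**Figure D5:**
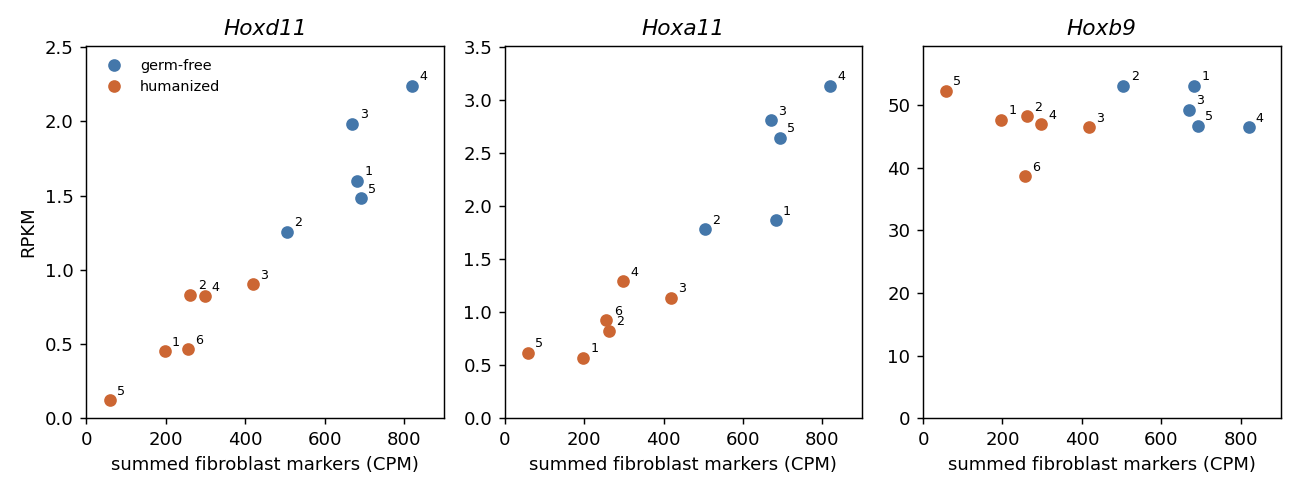
RPKM of Hoxd11, Hoxa11 and Hoxb9 against the summed level of 8 fibroblast markers (CPM) in each mouse, numbered within its group (germ-free blue, humanized orange). Germ-free mouse 4 is highest in Hoxd11, Hoxa11 and the marker sum, humanized mouse 5 is lowest in Hoxd11 and the marker sum, and Hoxb9 lies between 38.6 and 53.0 RPKM throughout.

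Genes that act with or upstream of the Hox clusters were examined as lists. Of 9 TALE cofactors 3 were lower (33.3%) and 0 higher in edgeR's exact test, where 10.1% of all tested genes were lower and 9.2% higher. They included Meis2 (0.508 ± 0.148 against 0.137 ± 0.0516 RPKM, SD, n = 5 and 6, LFC −1.89, FDR 4.07e-08) and Pknox2 (LFC −1.21, FDR 0.00173), both TALE homeodomain genes. Of 16 genes that induce Hox expression or handle its inducer retinoic acid, 12 were tested and 1 was lower (8.33%, near the share of all genes). It was Aldh1a2, a retinoic acid synthesizing enzyme, with 2.83 ± 0.680 against 1.06 ± 0.509 RPKM (SD, n = 5 and 6) and an LFC of −1.41 (edgeR exact test, FDR 5.67e-04).

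Cdx1 and Cdx2, the caudal-type factors that keep intestinal epithelium identity and act on Hox promoters, were abundant and not called, with LFC of 0.13 and 0.21 and standard errors of 0.10 and 0.08. Cdx2 measured 135 ± 6.90 RPKM (SD, n = 5) in germ-free and 156 ± 16.8 RPKM (SD, n = 6) in humanized mice. Of 19 Polycomb subunits, which keep Hox genes silent, 3 were lower (15.8%, against 10.1% of all tested genes) and 0 higher (against 9.2%), among them the chromodomain genes Cbx6 (LFC −0.997, FDR 3.09e-05) and Cbx7 (LFC −0.58, FDR 1.69e-04) in edgeR's exact test. Of 10 Trithorax genes, which keep them active, 1 was lower, the methyltransferase Kmt2a (LFC −0.40, FDR 3.19e-04), a share near that of all genes.

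Transcription factors of gut mesenchyme were lower for 6 of 11 genes (54.5%, against 10.1% of all tested genes) and higher for 0, with a median LFC of −1.29. Twist1, a mesenchymal bHLH factor, had an LFC of −2.18 (edgeR exact test, FDR 6.64e-08), and Gli2, a Hedgehog effector, −1.61 (FDR 5.91e-05). Those of gut epithelium were higher for 3 of 8 genes (37.5%, against 9.2%) and lower for 0, with a median LFC of 0.20. Elf3, an epithelial ETS factor, stood at 0.45 (FDR 2.75e-05) and Hnf4a, an enterocyte nuclear receptor, at 0.43 (FDR 6.08e-04).

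Beyond the ends of the clusters, 9 flanking genes were tested, of which 1 was lower (11.1%, against 10.1% of all tested genes) and 2 higher (22.2%, against 9.2%). Ttll6, beside HoxB, had an LFC of −0.73 (edgeR exact test, FDR 0.00156), Hibadh, beside HoxA, 0.37 (FDR 8.12e-05) and Mtx2, beside HoxD, 0.31 (FDR 0.00137). Inside the clusters lie 46 further rows, antisense and microRNA host transcripts among them. Of these 28 were tested, 7 were lower (25%, against 10.1% of all tested genes) and 0 higher, with a median LFC of −0.27. Several share exon bases with the Hox genes and are not separate evidence.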

How the data were processed

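PolyA RNA from the colon of 5 germ-free and 6 humanized mice was sequenced as 101 bp paired-end reads (TruSeq RNA v2, HiSeq-3000). Per the study's methods and the submitters' processing notes, reads were aligned to mm10 with TopHat (version 2.1.0, running Bowtie, version 2.2.3) and counted with featureCounts (Subread 1.4.6-p5). The table deposited by the authors holds raw counts per gene, with no normalization. Columns were matched to mice by title, and 0 columns were left unmatched. A strand or mate setting of the counting is not given in the sources used here. Even low counts were in excess (15491 values of 2 against 6213 values of 3), and whether mates were counted separately was not tested. If so, counting error is larger than the counts imply.

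All 43346 rows entered the fit, and 19863 passed filterByExpr at its defaults. edgeR 4.0.16 gave TMM scaling, dispersions and the exact test, with Benjamini-Hochberg FDR over all tested genes and a threshold of 0.01, as in the study. LFC is log2 of humanized over germ-free, and its standard error came from the quasi-likelihood fit. RPKM used the deposited gene length, which equals the summed exon bases in GENCODE M21 for 74.7% of 42462 matched genes. CPM is the count scaled to the TMM library size. DESeq2 1.42.0 and other scalings, filters and left-out mice were alternatives. The test scripts were tested on simulated data. No mice of a group had near-identical counts (mean chi-square per gene 21.2 to 132).

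The Hox genes and all lists were chosen with earlier results of these data known. Named with full values were the called genes and the highest gene of each cluster, and from other lists up to the 2 genes of lowest FDR in either direction. Cdx1, and Gm28309 for its shared exon bases, are named outside this rule. Other genes named outside it are said to be, or are given to show a range or a pattern chosen after values were seen. Values of 1 gene are not reported here, though counts and medians include it. Positions are those of the deposited table (mm10). Promoter windows are from RefSeq (GRCm38.p6).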

Additional observations from a re-analysis of the deposited data

Results flagged for a closer look

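In 3 of 64 groups of mice tested, 1 mouse stood farther from the others than Dixon's limit. Chance flags about 1 in 20 groups. Hoxd9 was at 3.02 RPKM in germ-free mouse 4, with the next germ-free mouse at 2.27 RPKM. Hoxd1 was at 0.684 RPKM in germ-free mouse 5, with the next at 0.431 RPKM. Hoxc11 was at 0.165 RPKM in humanized mouse 4, with the next humanized mouse at 0.0418 RPKM.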

How the results depend on the processing

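The 0.01 threshold called 5 Hox genes lower and 0 higher. The count of lower genes was 5 with DESeq2 and with RLE factors (15.6%, beside 11% and 10.1% of all genes), 1 with the quasi-likelihood test, 10 with total counts (31.25%, beside 18.2% of all tested genes), 3 with no filter (9.38%, beside 6.40%), 9 at an FDR below 0.05 (28.1%, beside 14.6%) and 3 when an absolute LFC above 1 was also required (9.38%, beside 6.41%). With single mice left out there were 2 to 7 lower genes and 0 higher, with 2 without germ-free mouse 4 and 3 without germ-free mouse 3 or 5 or humanized mouse 1 or 6. That was 6.25 to 22.6% of the Hox genes, beside 7.45 to 11.8% of all tested genes, and 6.25% beside 7.45% without germ-free mouse 4. Hoxa11 and Hoxd11 were called without each of the 11 mice. The count of Hox genes detected was 24 with at least 10 counts in every mouse and 37 with at least 1 read in any mouse.

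Total counts shifted the median LFC of all tested genes to −0.18 and epithelium marker scaling to −0.23. Smooth muscle and fibroblast marker scaling, the latter added after seeing the data, shifted it to 2.38 and 1.95, so that 0 Hox genes were lower under either and 21 (65.6%) and 15 (46.9%) were higher, beside 87.7% and 81.7% of all tested genes. Scaled to the smooth muscle markers, the genes whose sign turned and that were called there or with TMM scaling had a positive LFC, namely Hoxa10 1.85, Hoxa11 0.81, Hoxa2 2.09, Hoxa3 1.92, Hoxa4 1.85, Hoxa5 1.84, Hoxa6 1.54, Hoxa7 2.22, Hoxa9 2.01, Hoxb2 2.07, Hoxb4 2.1, Hoxb6 2.26, Hoxb7 2.42, Hoxb8 2.24, Hoxb9 2.34, Hoxc6 1.93, Hoxd1 1.88, Hoxd10 0.79, Hoxd11 0.60, Hoxd3 2.28, Hoxd4 2.30, Hoxd8 2.1 and Hoxd9 1.33. Scaled to the fibroblast markers, the same rule gave Hoxa11 0.30, Hoxa2 1.64, Hoxa3 1.48, Hoxa4 1.46, Hoxa7 1.85, Hoxb2 1.69, Hoxb4 1.69, Hoxb6 1.87, Hoxb7 1.99, Hoxb8 1.87, Hoxb9 1.93, Hoxd10 0.22, Hoxd3 1.77, Hoxd4 1.83, Hoxd8 1.61 and Hoxd9 0.77. These scalings set the marker change to 0 by construction. Germ-free and humanized mice share replicate numbers 1 to 5 in the labels but are different animals, and the deviations of same-numbered mice correlated between −0.13 and 0.091, so the numbers do not pair the mice. With the number as a replicate block, the quasi-likelihood test called 1 Hox gene lower (3.125%, beside 2.55% of all tested genes) and 0 higher (beside 2.55%).

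Low counts limit the HoxC genes, and the filter leaves Hoxd12 and Hoxd13 untested.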
